A study of Mus musculus with 8 samples.

Results

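Got1, Got2, Gpt, Gpt2, Kyat1, Kyat3, Psat1, Aadat and Oat, 9 of the 23360 genes with a row in the tables analysed here, encode aminotransferases, and they are described here in the inguinal fat pad, a subcutaneous white adipose depot. They were picked by name, with the row of the highest total kept for each symbol. RNA was sequenced from 6-week-old mice, in 4 control libraries from Lsd1 floxed mice and 4 knockout libraries from Lsd1 floxed mice crossed to Adipoq-Cre mice, so that both groups carried the floxed allele. The Adipoq promoter drives Cre in adipocytes, and the other cells of the pad keep Lsd1 (gene symbol Kdm1a), a histone demethylase. No group carried Cre without the floxed allele, so an effect of the transgene and of the deletion cannot be told apart, and the labels used here give neither strain nor sex, nor whether each library came from its own mouse. The p-values given thus measure only how far these libraries spread, which may be technical.

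Aminotransferases move an amino group from an amino acid to a 2-oxo acid, most often between glutamate and 2-oxoglutarate, and they use pyridoxal phosphate, made from vitamin B6, as their cofactor. Got1 in the cytosol and Got2 in mitochondria interconvert aspartate and oxaloacetate, and with the malate dehydrogenases and their carriers they form the malate-aspartate shuttle, which brings reducing equivalents from cytosolic NADH into mitochondria. Gpt in the cytosol and Gpt2 in mitochondria interconvert alanine and pyruvate. In fat, these reactions join amino acid breakdown to the supply of oxaloacetate and pyruvate for glyceride and fatty acid synthesis.

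The genes were proposed with results of the same knockout and control comparison in view. Their levels and fold changes are therefore given as a description, with no test, and nothing is supported with them. Levels are scaled reads, the read counts per gene times 1 factor per library as the authors deposited them. A log2 fold change is the difference of the mean log2(value + 1), with the control subtracted from the knockout. The libraries held 25671837 to 32442724 reads recovered from these values, and the lowest count of a described gene other than Aadat was 531 reads. Kdm1a itself was at 685 to 799 scaled reads in the controls and at 547 to 581 in the knockouts, so the groups did not overlap.

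The promoters of the 5 genes whose knockout and control values did not overlap are shown first, since 3 of these genes were higher together and 2 lower. Each is the 250 bases before a transcript start that the RefSeq promoter table lists, 5′ to 3′ on the gene's own strand, from RefSeq on GRCm38.p6, the same base assembly as mm10. The start used for Kyat1 and for Kyat3 lies inside the gene interval given below, so that all of the Kyat1 window and the last bases of the Kyat3 window fall within it. Of the 9 genes 8 had an entry, all but Gpt. Capitals mark matches on either strand to 5 motifs that were chosen with the sequences in view.
Got1 (chr19:43524606-43524855, minus strand): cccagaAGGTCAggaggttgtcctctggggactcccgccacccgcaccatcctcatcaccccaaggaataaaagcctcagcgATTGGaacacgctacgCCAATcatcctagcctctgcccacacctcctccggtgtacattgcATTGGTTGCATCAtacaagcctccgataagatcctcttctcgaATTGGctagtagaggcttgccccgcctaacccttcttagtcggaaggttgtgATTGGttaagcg
Got2 (chr8:95888402-95888651, minus strand): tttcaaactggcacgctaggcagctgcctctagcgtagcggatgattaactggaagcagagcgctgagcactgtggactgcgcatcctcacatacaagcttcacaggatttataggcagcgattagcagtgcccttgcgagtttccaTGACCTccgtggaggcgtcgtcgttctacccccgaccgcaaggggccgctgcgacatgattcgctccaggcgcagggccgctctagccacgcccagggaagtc
Kyat1 (chr2:30205848-30206097, minus strand): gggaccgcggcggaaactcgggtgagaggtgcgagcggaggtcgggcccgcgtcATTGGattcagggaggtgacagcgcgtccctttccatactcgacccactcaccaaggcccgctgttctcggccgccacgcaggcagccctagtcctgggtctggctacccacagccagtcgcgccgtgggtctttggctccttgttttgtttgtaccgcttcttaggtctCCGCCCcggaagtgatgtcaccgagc
Gpt2 (chr8:85492326-85492575, plus strand): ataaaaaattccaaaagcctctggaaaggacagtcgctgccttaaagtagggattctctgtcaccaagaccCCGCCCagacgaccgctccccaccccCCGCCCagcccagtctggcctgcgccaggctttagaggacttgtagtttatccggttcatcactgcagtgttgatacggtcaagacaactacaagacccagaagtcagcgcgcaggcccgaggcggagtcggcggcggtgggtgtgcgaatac
Kyat3 (chr3:142700798-142701047, plus strand): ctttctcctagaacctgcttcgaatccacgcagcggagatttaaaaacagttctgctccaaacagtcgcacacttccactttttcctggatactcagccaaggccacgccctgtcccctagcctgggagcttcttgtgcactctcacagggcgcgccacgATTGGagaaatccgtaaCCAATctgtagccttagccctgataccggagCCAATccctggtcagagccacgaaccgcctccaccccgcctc

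The CCAAT box was searched as CCAAT and its reverse complement, and 33.8% of 32851 RefSeq promoter windows of this length held it. The GC box was searched as GGGCGG and its reverse complement, held by 32.7%. The composite site of C/EBP and ATF factors was searched as TTGCATCA on both strands, held by 0.791%. The cyclic AMP response element was searched as TGACGTCA, which is its own reverse complement, held by 1.55%. The nuclear receptor half-site was searched as AGGTCA and its reverse complement, held by 4607 windows. No marked match overlapped a match to another motif. The Got1 window held 5 CCAAT boxes, 1 nuclear receptor half-site and the only composite site among the 8 genes with an entry, 102 bases before the start and directly next to a CCAAT box. The Got2 window held 1 nuclear receptor half-site, on the reverse strand, and neither a CCAAT box nor a GC box. Kyat1 had 1 CCAAT box and 1 GC box, Gpt2 had 2 GC boxes, and Kyat3 had 3 CCAAT boxes. None of the 5 motifs was present in all 3 of the genes that were higher, and no window of these 8 genes held the cyclic AMP response element. These are matches of letters and say nothing of binding.

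Both aspartate aminotransferase genes had higher levels in each of the 4 knockouts than in every control library. Got1 (NM_010324, chr19:43499752-43524605) had 333, 310.1, 332 and 299 scaled reads in the controls, in the order of replicates 1 to 4, and 482, 583, 579 and 578 in the knockouts, in the same order. Its mean went from 319 ± 17.0 to 556 ± 49.4 (SD, n = 4 each), a log2 fold change of 0.80 (SE 0.091). The groups were apart by 1.44 times between the nearest libraries, and knockout replicate 1 lay below the other 3 knockouts.

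Got2 (NM_010325, chr8:95864133-95888401) was at 507, 432, 540.1 and 484 scaled reads in the controls and at 1030.15, 1119, 1208 and 1109.9 in the knockouts. The mean was 491 ± 45.5 in controls and 1117 ± 72.8 in knockouts (SD, n = 4 each), 2.28 times as high, with a log2 fold change of 1.19 (SE 0.089). The lowest knockout was at 1.91 times the highest control. Besides its part in the shuttle, the Got2 protein is known at the plasma membrane as a fatty acid-binding protein. Reads of Got2 carry an uncertainty of assignment. The annotated transcripts of the pseudogenes Gm10874 and Got2-ps1 matched it at 98.8% over 1637 bases and at 99.1% over 1293 bases. The annotated opposite-strand transcript Gm45760 shares 434 exon bases with it, and the sources used here do not say how such reads or strands were treated.

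Kyat1 (NM_172404, chr2:30185124-30206295) makes kynurenic acid from kynurenine and also transaminates glutamine. It was at 299, 314, 315 and 274 scaled reads in the controls and at 536, 527, 575 and 497 in the knockouts. The mean went from 301 ± 19.3 to 534 ± 32.1 (SD, n = 4 each; log2 fold change 0.83, SE 0.085). The 2 groups were again apart in every library, by 1.58 times between the nearest ones, so that the third higher member had a fold change close to that of Got1.

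**Figure D1:**
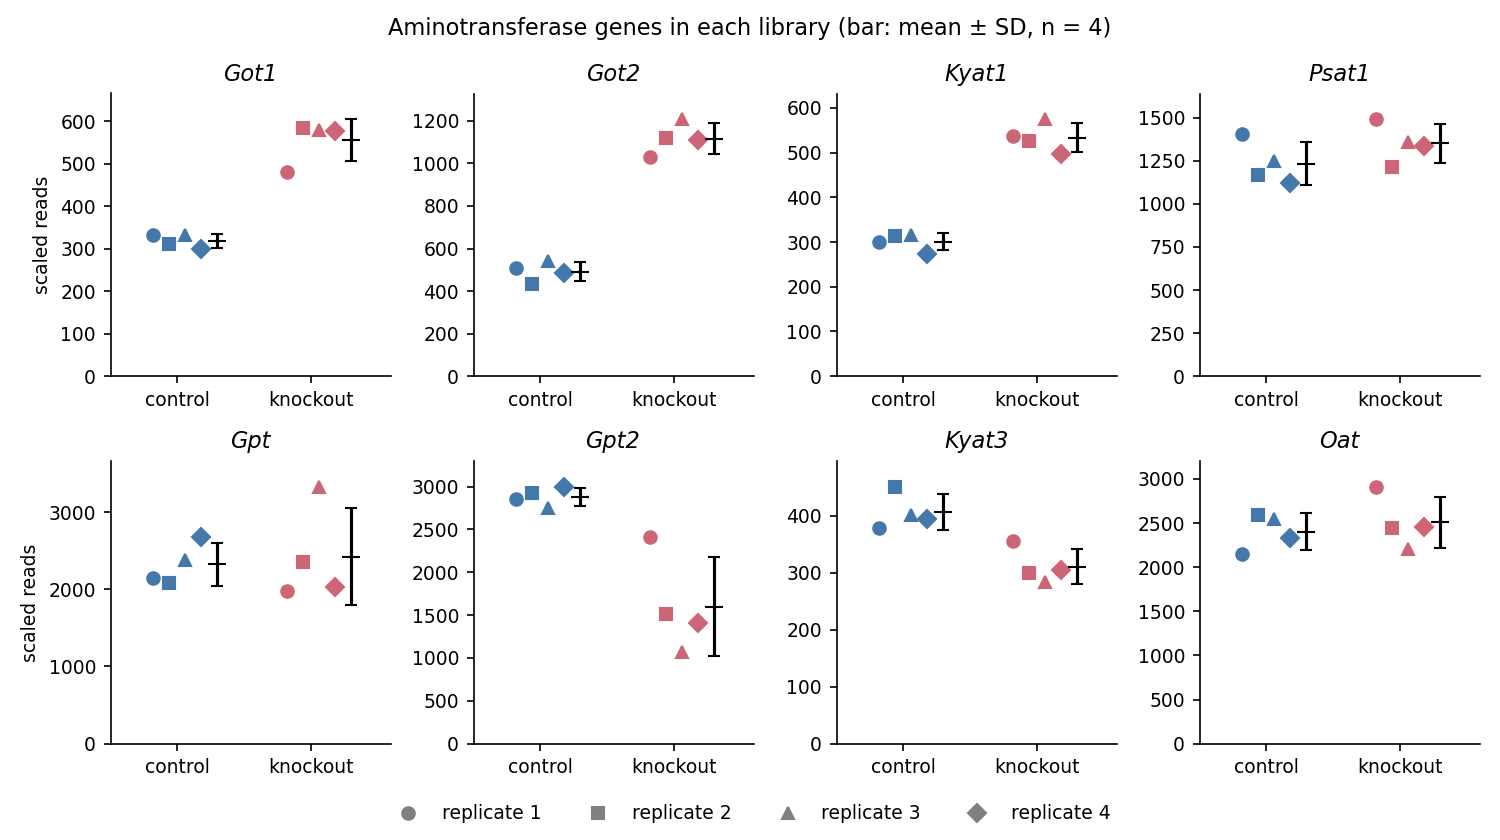
Scaled reads (vertical axes, from 0) of the 8 aminotransferase genes with more than a trace of reads, by group, with 1 marker per library and a bar for the mean and SD of 4 libraries. Got1, Got2 and Kyat1 lie higher in every knockout than in every control, Gpt2 and Kyat3 lie lower, and the groups of Psat1, Gpt and Oat overlap.

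Gpt2, the mitochondrial alanine aminotransferase, was lower in the knockouts and varied most among them. Gpt2 (NM_173866, chr8:85492576-85528902) was at 2861, 2925.5, 2751 and 2999 scaled reads in the controls and at 2417, 1511, 1069.6 and 1402 in the knockouts. The mean was 2884 ± 105 against 1600.05 ± 576 (SD, n = 4 each), a log2 fold change of -0.91 (SE 0.20). The coefficient of variation was 3.65% in the controls and 36.0% in the knockouts. Transcripts of the annotated gene Gm5049 match Gpt2 at 92.2% over 1328 bases. The highest knockout, replicate 1, was at 0.879 times the lowest control, whereas replicate 3 was at 0.371 times the control mean.

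Gpt (NM_182805, chr15:76696726-76699675), the cytosolic partner, showed no such separation. Its scaled reads were 2152, 2076, 2375 and 2683 in the controls and 1978, 2355, 3329 and 2029 in the knockouts (means 2321 ± 272 and 2423 ± 627, SD, n = 4 each; log2 fold change 0.04, SE 0.16). The groups overlapped, and knockout replicate 3, the lowest library for Gpt2, was the highest for Gpt.

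Kyat3 (NM_173763, chr3:142701019-142744911), also a kynurenine and glutamine aminotransferase, was lower by less. It was at 378, 451, 401 and 395 scaled reads in the controls and at 355, 300.4, 284 and 304 in the knockouts. The means were 406 ± 31.5 and 311 ± 30.6 (SD, n = 4 each; log2 fold change -0.39, SE 0.099). The groups did not overlap, but the nearest libraries, control replicate 1 and knockout replicate 1, differed by little (ratio 0.940). The antisense gene Gm15540 shares 264 exon bases with Kyat3.

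Psat1 and Oat, the enzymes of serine synthesis and of ornithine breakdown in mitochondria, overlapped between the groups. Psat1 (NM_177420, chr19:15905123-15925059) was at 1403, 1167, 1247 and 1119 scaled reads in the controls and at 1492, 1213, 1362 and 1337 in the knockouts (log2 fold change 0.13, SE 0.094). Oat (NM_016978, chr7:132557475-132576398) was at 2146, 2588, 2548 and 2333 in the controls and at 2912, 2445, 2209.9 and 2459 in the knockouts (log2 fold change 0.06, SE 0.10). The difference of the means was smaller than the SD of the controls for both genes (means 1234 ± 124 and 1351 ± 114 for Psat1, 2404 ± 205 and 2506 ± 294 for Oat, SD, n = 4 each). Aadat (NM_011834, chr8:60505843-60545677), which acts on 2-aminoadipate in lysine breakdown and on kynurenine, had no read in the 4 controls and knockout replicate 1, and 2 reads in each of the other 3 knockouts. All 8 libraries were under the 3 reads that a count of 0 allows, so no level was detectable at this depth and no fold is given.

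Of the 9 genes, 8 passed the filter of 10 scaled reads in at least 4 libraries. The fit over all 14591 genes placed 3 of the 8 (Got1, Got2 and Kyat1) past the threshold used for the other genes here (limma, Benjamini-Hochberg adjusted p under 0.05), which for genes proposed from this comparison is a description and not a test. Over all genes tested 1.64% were past it, 1.28% as higher and 0.356% as lower. The 3 genes past the threshold and the 2 lower genes without overlap stand beside 8.65% of all tested genes whose groups did not overlap, 5.06% higher and 3.58% lower. Nothing is read from these shares. The median log2 fold change of the 8 described genes tested was 0.09, and that of all genes tested was 0.02.

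**Figure D2:**
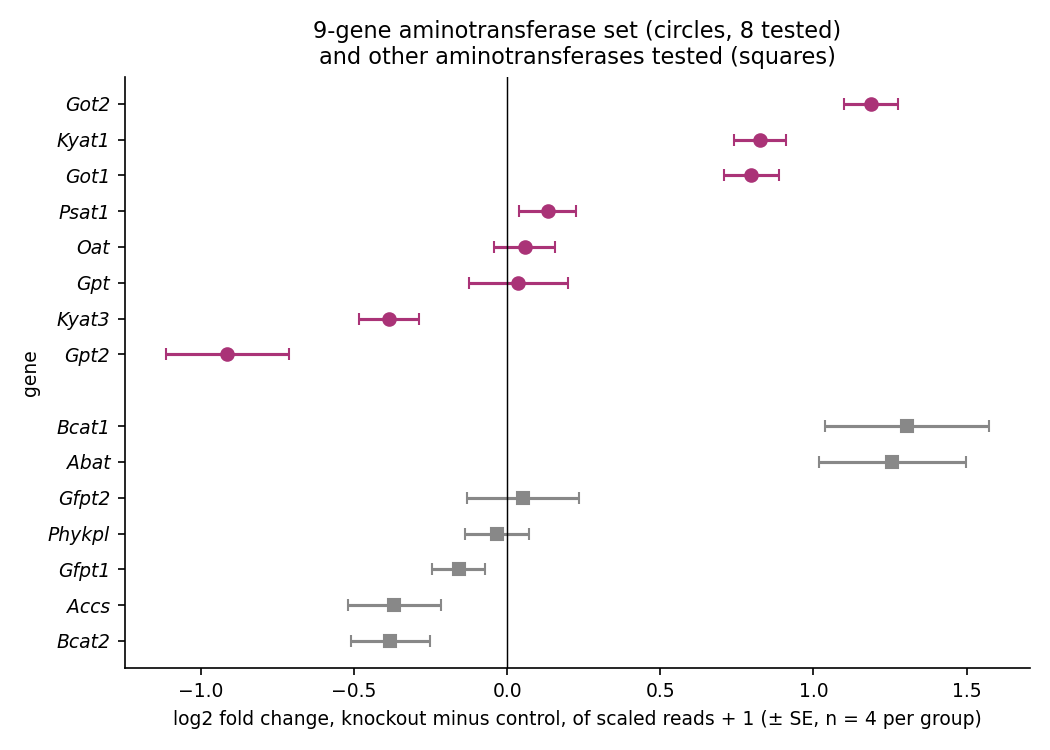
Log2 fold change of scaled reads + 1, knockout minus control (horizontal axis, ± SE, 4 libraries per group), for the 8 described genes tested (circles) and 7 other aminotransferases (squares). Values run from 1.19 for Got2 to -0.91 for Gpt2 among the circles, and Bcat1 and Abat lie apart from the other squares.

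Levels between genes were compared per kilobase of transcript. In the controls Gpt led with 1295 ± 152 scaled reads per kilobase, followed by Oat (1117 ± 95.5), Gpt2 (793 ± 28.9), Psat1 (471 ± 47.6), Got2 (194 ± 18.0), Got1 (155 ± 8.27), Kyat1 (148 ± 9.52) and Kyat3 (96.6 ± 7.49; SD, n = 4 each). The ranges over the controls overlapped between the neighbours Gpt and Oat and between Got1 and Kyat1, and between no other neighbours. In the knockouts Got2 (441 ± 28.8) stood next to Gpt2 (440 ± 158), and Psat1 (516 ± 43.6) had the third-highest level. In the controls the alanine enzymes and Oat thus had more transcript per length than the aspartate enzymes. In the knockouts the means of Got2 and Gpt2 were level, but single knockouts ran from 407 to 477 for Got2 and from 294 to 664 for Gpt2.

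Within the enzyme pairs the balance differed between the groups. The ratio of Got2 to Got1 per kilobase was 1.24, 1.13, 1.32 and 1.32 in the controls and 1.74, 1.56, 1.70 and 1.56 in the knockouts, without overlap. Both genes were higher, and Got2, the mitochondrial form, by more. The ratio of Gpt2 to Gpt was 0.655, 0.694, 0.570 and 0.550 in the controls and 0.602, 0.316, 0.158 and 0.340 in the knockouts. Knockout replicate 1 lay within the control range and the other 3 below it. The ratio of Kyat1 to Kyat3 was 1.64, 1.45, 1.63 and 1.44 in the controls and 3.13, 3.64, 4.19 and 3.39 in the knockouts. These ratios come from the same comparison and are not tested.

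**Figure D3:**
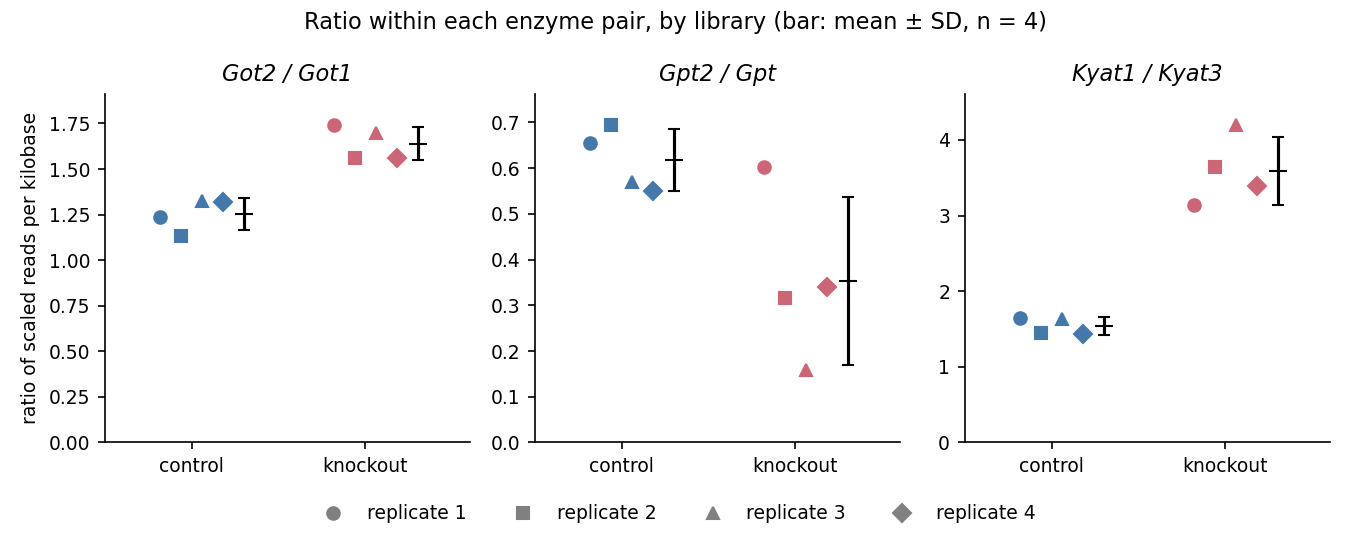
Ratio of scaled reads per kilobase of transcript (vertical axes, from 0) within 3 pairs of related enzymes, by group, with 1 marker per library and a bar for the mean and SD of 4 libraries. The knockouts lie above the controls for Got2 to Got1 and for Kyat1 to Kyat3, while for Gpt2 to Gpt 1 knockout lies among the controls.

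The tissue held its labelled cells and others. All 10 adipocyte markers were among the genes tested. They summed to 432448 to 547330 scaled reads in the controls and 321350 to 354548 in the knockouts, and 1 of them (Cidec) was past the threshold, as lower. The highest values in these sums were those of Cfd (means 152332 in controls and 101048 in knockouts) and Fabp4 (150241 and 114626). Fabp4, Lipe, Cidec and Cfd were lower without overlap. The groups of Adipoq, Plin1, Pparg, Lep, Retn and Pnpla2 overlapped, and the mean of Retn was higher in the knockouts. Fewer adipocytes and less RNA per adipocyte cannot be told apart in such bulk samples. The 13 skeletal muscle markers used summed to 9428 to 41128 scaled reads in the controls, 14136 in knockout replicate 3 and 122699 to 213927 in the other 3 knockouts, and none of the 13 was past the threshold as higher or lower. B cell markers (10) summed to 7715 to 16766 in the controls and 12111 to 16670.4 in the knockouts, those of mammary epithelium (10, of which 4 were tested) to 119 to 187 and 172 to 653, and those of macrophages (6) to 14307 to 18779 and 18459 to 22789. Endothelial markers (6) summed to 13026 to 15204 in the controls and 11111 to 13444 in the knockouts, and thermogenic adipocyte markers (8) to 5351 to 14577 and 7726 to 16221. None of the markers tested in these 5 lists was past the threshold. The mammary marker Krt5 was at 237 and 82.2 scaled reads in knockout replicates 1 and 2. It was at 0.49 (1 read) in control replicate 1 and at 0 in the other 5 libraries. Krt14 was at 137 and 39.7 in the same knockouts and at 0.98 or less elsewhere. Krt8 and Krt18 reached no more than 3.27 and 9.73 in any library. Cldn3 and Cldn7 were higher in every knockout than in every control, and the groups of Krt19, Epcam, Cdh1 and Elf5 overlapped. The cell type behind these reads was not tested.

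Levels of Got1, Got2, Kyat1 and Gpt2 were set beside the marker levels of other tissues. In knockout replicate 3, whose muscle markers lay within the control range, Got1 was at 1.82 times, Got2 at 2.46 times and Kyat1 at 1.91 times the control mean. In the other 3 knockouts these ratios were 1.51 to 1.83 for Got1, 2.10 to 2.28 for Got2 and 1.65 to 1.78 for Kyat1. With the muscle marker level as a covariate the log2 fold changes were 0.82 for Got1, 1.25 for Got2, 0.84 for Kyat1 and -1.22 for Gpt2. With the B cell level as a covariate they were 0.77, 1.11, 0.84 and -0.82, and with the mammary level 0.88, 1.24, 0.79 and -1.25. Without the controls numbered 517 and 518, whose sample numbers lie apart from the 356 to 361 of the other libraries, they were 0.81, 1.12, 0.86 and -0.91. These values describe the same libraries and are no test of the 4 genes. Knockout replicate 3 is 1 library, and the part of muscle, B cell or mammary content in these levels was not tested.

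**Figure D4:**
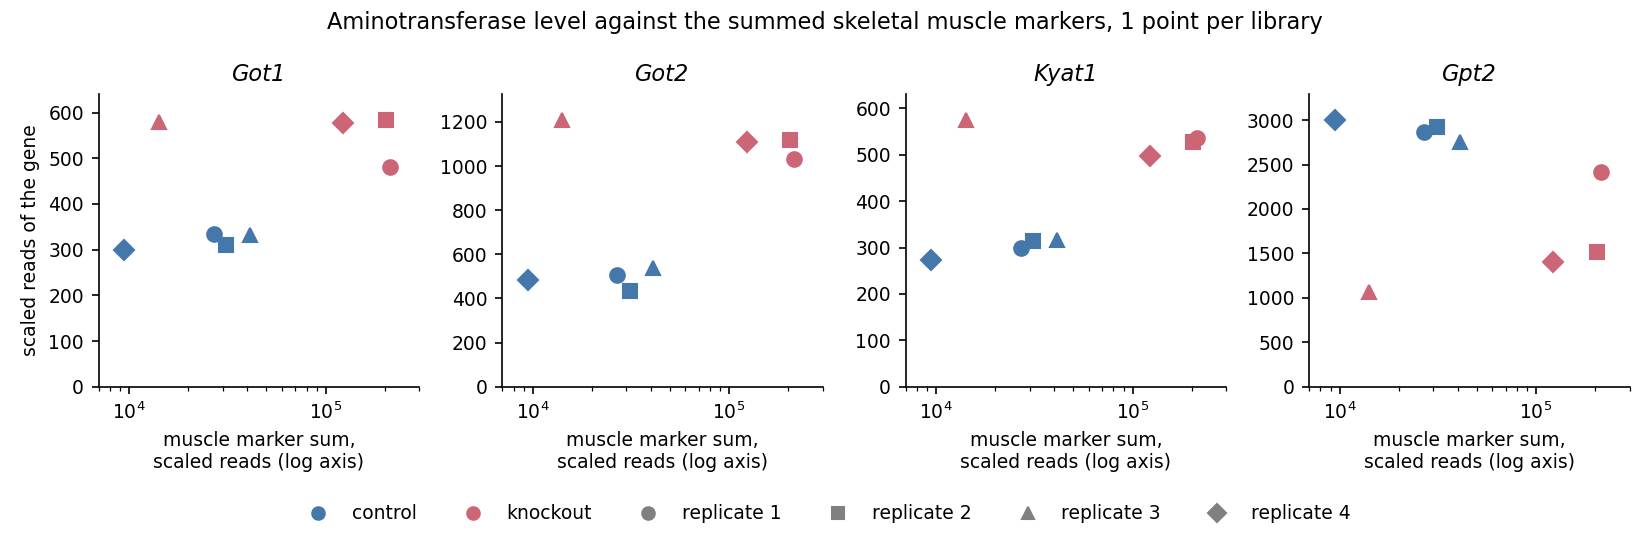
Scaled reads of 4 aminotransferase genes (vertical axes, from 0) against the summed scaled reads of 13 skeletal muscle markers (horizontal log axis), with 1 marker per library. Knockout replicate 3, at the muscle level of the controls, lies above every control for Got1, Got2 and Kyat1, as do the knockouts with 122699 or more muscle reads.

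Libraries of 1 group also differed among themselves. After group means were removed, Got1 and Got2 had a correlation of 0.66 over the 8 libraries, Got1 and Gpt2 of -0.81, and Kyat3 and Oat of 0.92. On the same scale Gpt had a correlation of -0.88 with the muscle marker level and Got2 of 0.79 with the B cell level. Of 11260 genes with a mean of at least 100 scaled reads, those most like Got1 were Rnaseh2a (0.95), Niban3 (0.94) and Tap2 (0.94). Those most like Got2 were the T cell genes Cd3g (0.99) and Ccr7 (0.99) and the actin regulator Arpc2 (0.99). These correlations describe 8 libraries that share their preparation and scaling, and the part of lymphocyte content in them was not tested.

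Aminotransferases outside the 9 genes held 2 genes that rose. Of 12 genes measured 7 were tested, 2 were past the threshold as higher and none as lower (limma), beside 1.28% and 0.356% of all genes tested. The median log2 fold change was -0.03, against 0.02 for all genes, 4 had an unadjusted p under 0.05, and edgeR called 1, DESeq2 2 and limma-voom 2. Over all 14591 genes tested, 2119 had an unadjusted p under 0.05 (limma). Of all genes edgeR called 218, DESeq2 776 and limma-voom 200, and these totals stand beside the counts of each list below. Bcat1, the cytosolic branched-chain aminotransferase, was at 89.8, 66.8, 144 and 157 scaled reads in the controls and 219.8, 261, 355 and 254 in the knockouts, and rose from 114 ± 43.0 to 272 ± 57.8 (SD, n = 4 each), with a log2 fold change of 1.31 (SE 0.27; limma, adjusted p = 0.0458). Abat, which breaks down the inhibitory transmitter GABA in mitochondria, was at 73.7, 87.0, 145 and 132 in the controls and 266, 225, 202 and 339.5 in the knockouts, and rose from 109 ± 34.4 to 258 ± 60.4 (1.26, SE 0.24; limma, adjusted p = 0.0328). Both were higher in 4 of 4 knockouts than in any control, and in both the controls numbered 518 and 517 were the lowest.

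Without 1 library the log2 fold changes were 1.08 to 1.48 for Bcat1 and 1.09 to 1.41 for Abat. Both calls were near the threshold and did not hold in several such fits. That of Bcat1 was lost without control replicate 1 or 2 or any 1 knockout (limma adjusted p 0.0533 to 0.142) and without both of these controls (log2 fold change 0.83, adjusted p = 0.154). It was also lost with edgeR on recovered reads (adjusted p = 0.0504), with no filter (0.0582) and with the mammary covariate (1.46, adjusted p = 0.136), within a range of 0.000177 to 0.165 over all alternatives. That of Abat did not survive leaving out 1 control (replicate 1, 2 or 4) or 1 knockout (replicate 1, 2 or 4; limma adjusted p 0.0522 to 0.120), nor leaving out both of those controls (0.87, adjusted p = 0.172) or fitting a B cell, mammary or muscle covariate (0.101 to 0.144), within a range of 2.45e-05 to 0.286. Bcat2, the mitochondrial form, was at 4551 ± 271 in controls and 3540.1 ± 733 in knockouts (SD, n = 4 each; -0.38, limma adjusted p = 0.207), and leaving out knockout replicate 1 brought it past the threshold as lower (-0.52, adjusted p = 0.0165).

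The partners of Got1 and Got2 in the malate-aspartate shuttle did not pass. Of 5 tested none was past the threshold (limma; 1 had an unadjusted p under 0.05, and edgeR, DESeq2 and limma-voom on recovered reads called 0). The malate dehydrogenases Mdh1 (cytosolic) and Mdh2 (mitochondrial) were at 8448 ± 1274 and 6409 ± 986 scaled reads in the controls and 8000.4 ± 1611 and 5842 ± 914 in the knockouts. The oxoglutarate carrier Slc25a11 was at 1734 ± 98.5 and 1740.4 ± 195. Of the aspartate-glutamate carriers, Slc25a12 was at 354 ± 45.8 and 473 ± 72.5 (SD, n = 4 each; log2 fold change 0.41, limma adjusted p = 0.200), and leaving out knockout replicate 3 brought it past the threshold (0.53, adjusted p = 0.0416). Knockout replicate 3 was at 368, within the control range of 300 to 412. The other knockouts, those with the most muscle marker reads, were at 484 to 532, and the part of muscle in this was not tested. Over all alternatives the log2 fold change of Slc25a12 was 0.068 to 0.53. Slc25a13 was at 34.8 ± 12.4 and 44.3 ± 8.58 (0.39, adjusted p = 0.553). The shuttle carriers and dehydrogenases thus had log2 fold changes from -0.13 to 0.41.

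Genes that supply or use glutamate, pyruvate and oxaloacetate held no call. Of 11 glutamate and glutamine genes tested none passed (limma, median log2 fold change -0.14, 2 with an unadjusted p under 0.05, and 0 called by edgeR, DESeq2 or limma-voom). Glutamate dehydrogenase, Glud1, was at 4006 ± 274 in controls and 3505 ± 431 in knockouts. Glutamine synthetase, Glul, was at 22042 ± 5628 and 14923 ± 4089.7 (SD, n = 4 each). Of 10 pyruvate and oxaloacetate genes none passed (median -0.22, 4 with an unadjusted p under 0.05, 0 by edgeR and limma-voom and 1, Ldhb, by DESeq2). The pyruvate carrier subunits Mpc1 and Mpc2 were at 299 ± 75.8 and 3310.4 ± 999 in controls and at 216 ± 54.7 and 3239.9 ± 1144 in knockouts. Pyruvate carboxylase, Pcx, was at 27756 ± 6104 and 19837 ± 3754, and the glyceroneogenic enzyme Pck1 at 22641 ± 7764 and 14468 ± 4411, so that in both groups the spread was wide.

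Users of aspartate and the serine pathway around Psat1 held no call either. Of 9 aspartate and asparagine genes none passed (limma, median log2 fold change 0.08, 3 with an unadjusted p under 0.05, and 0 called by edgeR, DESeq2 or limma-voom). Asparagine synthetase, Asns, was at 1067 ± 134 in controls and 888 ± 70.7 in knockouts. Nat8l, which makes N-acetylaspartate, was at 5421 ± 808 and 5424 ± 882 (SD, n = 4 each). Of 10 serine and glycine genes none passed (limma, median 0.15, 1 with an unadjusted p under 0.05, 0 by edgeR and limma-voom and 1, Cth, by DESeq2). Phgdh and Psph, the enzymes before and after Psat1, were at 498 ± 136 and 488 ± 117 in controls and 663 ± 91.4 and 457 ± 147 in knockouts, and the mitochondrial Shmt2 at 611 ± 77.9 and 671 ± 45.9.

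Around Oat, of 12 ornithine, proline and arginine genes tested none passed (limma, median log2 fold change 0.04, 3 with an unadjusted p under 0.05, 0 by edgeR and limma-voom and 1, Aldh4a1, by DESeq2). Aldh18a1, which makes the glutamate semialdehyde that Oat also yields, was at 401 ± 52.1 in controls and 501 ± 32.4 in knockouts, and Pycr1, which makes proline, at 29.3 ± 3.01 and 29.9 ± 5.32 (SD, n = 4 each). Proline dehydrogenase, Prodh, was at 844 ± 253 and 551 ± 157, and the mitochondrial ornithine carrier Slc25a15 at 287 ± 17.6 and 257 ± 32.6.

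Around Aadat and the kynurenine enzymes, 1 of 11 tryptophan and lysine breakdown genes tested was past the threshold as higher and none as lower (limma, median log2 fold change 0.18). The shares over all genes tested were 1.28% and 0.356%. In this list 4 genes had an unadjusted p under 0.05, edgeR and limma-voom called 1 and DESeq2 called 2, the other being Aass. Aass was at 3.90 to 7.74 scaled reads in the controls and 10.17 to 16.97 in the knockouts. Both genes called by DESeq2 passed the filter only through the knockouts, so the counts that hold them are a description and not a test. The gene past the threshold was Slc25a21 (chr12:56712634-57197472), the mitochondrial carrier of the 2-oxoadipate that Aadat makes. Its scaled reads were 3.90, 1.97, 3.92 and 2.58 in the controls and 31.1, 26.1, 36.7 and 28.0 in the knockouts, so that the groups did not overlap. It passed the filter only through the knockouts, so its level is given as a description, with no test. Its log2 fold change was 2.96 with the pseudocount of 1 and 2.13 with a pseudocount of 5, in a range of 2.13 to 3.29 over the alternatives. The control values rest on 4 to 8 reads per library, and its large change was already known when the list was written. Dhtkd1, a subunit of the enzyme that breaks down 2-oxoadipate, was at 203 ± 39.8 in controls and 122 ± 60.0 in knockouts (SD, n = 4 each; -0.84, limma adjusted p = 0.242), and leaving out knockout replicate 1 brought it past the threshold as lower (-1.13, adjusted p = 0.0452).

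Genes of the amino acid stress response run by ATF4, for which Psat1 and Asns are known targets, held no call among 12 tested (limma, median log2 fold change 0.13, 3 with an unadjusted p under 0.05, 0 by edgeR and limma-voom and 1, Sesn2, by DESeq2). Atf4 was at 2346 ± 331 in controls and 2563 ± 611 in knockouts (SD, n = 4 each). Of the 4 genes for the supply of pyridoxal phosphate none passed (limma, 2 with an unadjusted p under 0.05, 0 by edgeR and limma-voom and 1, Pdxp, by DESeq2). Over the 10 lists, 3 of 91 genes tested were past the threshold, all 3 as higher, beside 1.64% of all genes tested. Slc25a21, which passed the filter only through the knockouts, is among these 3 as a description and not a test. Without knockout replicate 1 the count was again 3, all as lower, and Slc25a21 did not pass the filter in that fit.

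**Figure D5:**
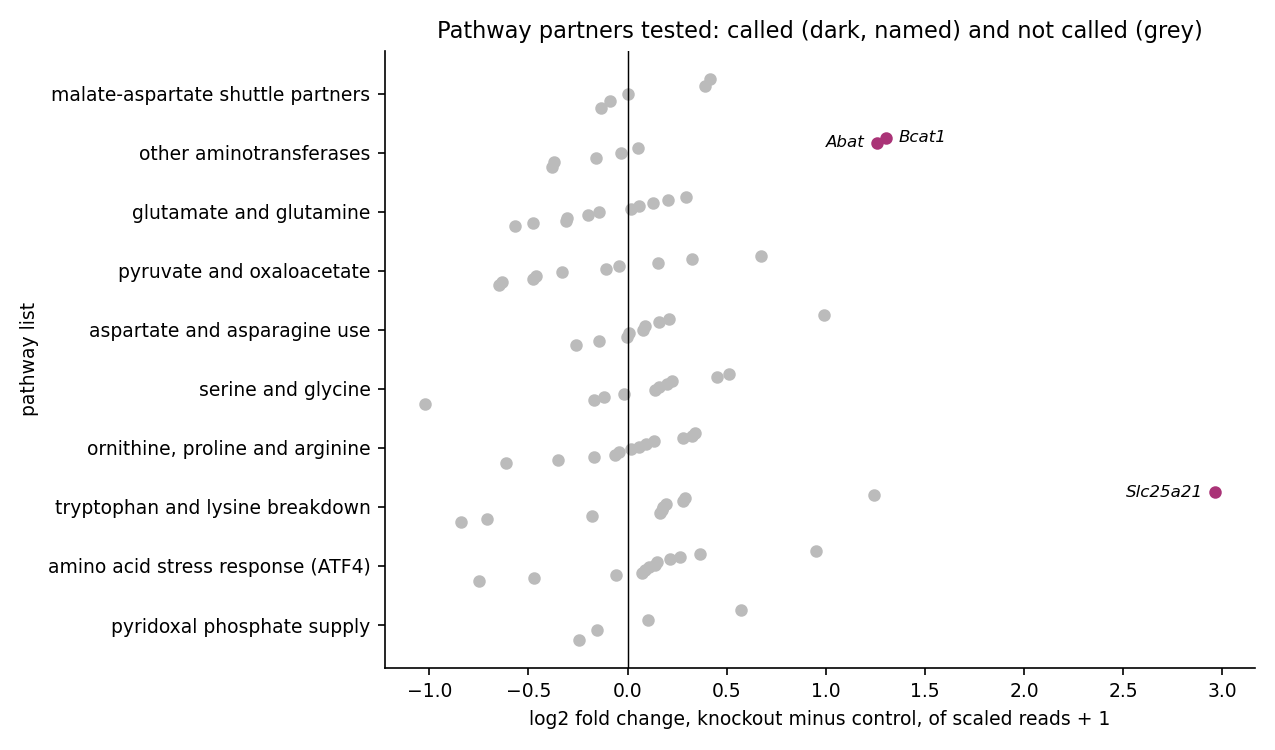
Log2 fold change of scaled reads + 1, knockout minus control (horizontal axis), of 91 pathway genes in 10 lists, with 1 point per gene. The 3 genes past the threshold are dark and named, Slc25a21 at 2.96, Bcat1 at 1.31 and Abat at 1.26. Slc25a21 passed the filter only through the knockouts and is shown as a description.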

How the data were processed

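The authors used TopHat version 2 with mm10 for alignment, HOMER for counting and edgeR and DESeq version 1.8.3 for differences, per the labels and the series design text. How strands and scaling were handled, and which annotation was used, is not given in the sources used here. The values the authors deposited are a signal: read counts times 1 factor per library, whole multiples of a step of 0.442 to 0.545 (tolerance 0.02) for 100% of values. Even multiples made up 54.0 to 56.2% of low values, so that a step may be 1 end of a read pair.

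Accessions were matched to symbols with RefSeq (22527 rows) and GENCODE M21 (124). The other 721 rows, with 1.64% of the values, kept their accession. Transcript lengths, exon overlaps and similar transcripts came from GENCODE M21. The test, on log2(value + 1), was limma 3.58.1 with its trend option, genotype as the only term, and Benjamini-Hochberg adjustment over the 14591 genes with at least 10 scaled reads in at least 4 libraries. It was tested on simulated data. edgeR 4.0.16 and DESeq2 1.42.0 on recovered reads were alternatives (edgeR called 218 genes), under R 4.3.3. Python 3.11.15, pandas 2.3.3 and matplotlib 3.10.9 made tables and figures.

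Named pathway genes were those past the threshold and 28 listed by name, of which 1 is not reported here. Trib3 was not analysed here, nor were the markers Myh2, Cd68 and Csf1r. Genes that DESeq2 alone called were named after their values were seen. The described genes, the gene lists and the tests were chosen with earlier results of these data known. The fit of knockout replicate 3 alone and the promoter motifs were added after the data were seen.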

Additional observations from a re-analysis of the deposited data

Results flagged for a closer look

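In a group of 4, a library was listed where its gap to the nearest other library exceeded Dixon's critical share of the group's range. Of 68 groups examined 3 were listed, and chance lists about 1 in 20. Got1 was at 482 scaled reads in knockout replicate 1, below 578 to 583 in the other 3. Bcat2 was at 4639.8 in knockout replicate 1, above 3164 to 3187 in the other 3. Slc25a15 was at 208 in knockout replicate 2, below 268 to 280.1 in the other 3.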

How the results depend on the processing

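No paired analysis was possible because the sample numbers in the labels are not shared between the groups. The count of the 9 described genes past the threshold, 3, is a description, since they were chosen from this comparison. It was 3 to 4 without 1 library and 5 with DESeq2, which added Gpt2 and Kyat3. It was 4 without knockout replicate 1 and with the muscle or the mammary covariate, each of which added Gpt2, and 3 with the B cell covariate. With knockout replicate 3 alone against the controls, where the lone library is assumed to vary like the controls, it was 1 (Gpt2), and 17 of all genes were past the threshold. Over all alternatives the log2 fold changes were 0.77 to 0.88 for Got1, 1.11 to 1.30 for Got2, 0.78 to 0.93 for Kyat1, -1.43 to -0.74 for Gpt2 and -0.51 to -0.33 for Kyat3. Those of Gpt (-0.13 to 0.53) and Oat (-0.12 to 0.12) changed sign. The count over all genes, 239, was 71 to 429 without 1 library, 98 without control replicates 1 and 2 together, 139 with the B cell and 110 with the mammary covariate and 776 with DESeq2. The count of pathway genes, 3, was 0 to 3 without 1 library (without knockout replicate 1, 0 higher and 3 lower), 0 with knockout replicate 3 alone, 1 with the mammary covariate and 9 with DESeq2. Slc25a21 could be fitted in 17 alternatives. In the others, the filter of 50 scaled reads and every fit that left out a knockout library, it did not pass the filter. It could therefore not be among the pathway genes counted there.

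Genes that did not pass changed sign in some alternatives. With knockout replicate 3 alone the log2 fold change was 0.29 for Mdh1, 0.13 for Mdh2, 0.0016 for Mpc1, 0.61 for Mpc2, 0.32 for Nat8l and 0.45 for Psph. With the muscle covariate it was 0.13 for Mdh1, 0.0082 for Mdh2, 0.35 for Mpc2, 0.25 for Nat8l and 0.25 for Psph. With the mammary covariate it was 0.040 for Mdh1, 0.23 for Mpc2, 0.15 for Nat8l and 0.12 for Psph, and with the B cell covariate 0.050 for Mpc2. Without control replicates 1 and 2 together it was 0.083 for Mdh1, 0.042 for Mdh2 and 0.26 for Mpc2. Slc25a11 was at -0.017 with DESeq2, -0.013 with edgeR on recovered or halved reads, -0.019 with limma-voom, -0.021 with RLE and -0.018 with TMM scaling. Pycr1 was at -0.0040 with RLE and -0.00023 with TMM. Without 1 library the ranges were -0.074 to 0.048 for Slc25a11, -0.26 to 0.13 for Mpc2, -0.11 to 0.064 for Nat8l, -0.31 to 0.043 for Psph, -0.068 to 0.12 for Pycr1 and -0.044 to 0.20 for Atf4. The cause of these changes was not tested. Aadat, at 0 to 2 reads, is limited by depth.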
